A study of Mus musculus with 10 samples.

Results

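The expression of 10 genes that encode regulators of epithelial cell identity was followed in the pregnant mouse uterus after deletion of *Arid1a*, which encodes a subunit of the SWI/SNF chromatin remodeling complex, in the endometrial epithelium. They were taken by name, with earlier results of these data known, and are the ETS-family factors *Elf3*, *Elf5* and *Ehf*, the grainyhead-like factors *Grhl1*, *Grhl2* and *Grhl3*, the zinc-finger repressors *Ovol1* and *Ovol2*, the splicing regulator *Esrp1* and the Krüppel-like factor *Klf5*. All 10 were listed among the 45706 genes of the count table and all 10 were among the 25146 genes tested, whose counts averaged 1 or more per sample. RNA of the whole uterus was sequenced at gestation day (GD) 3.5 from adult females, 5 of the control genotype *Arid1a* f/f and 5 of the genotype *Ltf* iCre/+ *Arid1a* f/f, whose uteri are called mutant here, with 1 mouse per sample.

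Both genotypes carry the floxed *Arid1a* alleles, and they differ by the iCre recombinase, which is expressed from 1 lactoferrin (*Ltf*) allele and recombines in the epithelium of the adult endometrium. The study notes that this driver can also be active in myeloid cells, neutrophils among them. The females were of a mixed background that combined C57BL/6 with 129S1/SvImJ, 129S6/SvEvTac and 129P2/OlaHsd and had been mated with wildtype males. Between 65351817 and 72702411 counts per control uterus and between 59296537 and 67990486 per mutant uterus were assigned to genes. Levels are given in CPM, a count scaled to a library size that edgeR's TMM method had normalized, and their error is the SD over 5 uteri. Adjusted p-values come from edgeR's quasi-likelihood test of genotype, with Benjamini-Hochberg adjustment over all 25146 genes and a threshold of 0.05. Log2 CPM of each gene was also permuted over the uteri (exact permutation test, two-sided, unadjusted over the 10 genes), and the smallest p that 5 uteri of each genotype allow is 0.00794. *Arid1a* itself, whose transcript also comes from cells that do not express the iCre, stood at 213 ± 22.9 CPM in controls and 185 ± 15.9 CPM in mutant uteri. Its log2 fold change was -0.20 (adjusted p = 0.201, exact permutation p = 0.0397), and 4 of 5 mutant uteri lay below every control. The driver gene *Ltf* stood at 4.75 ± 3.92 CPM in controls and at 383, 23.6, 39.8, 290 and 2831 CPM in mutant replicates 1 to 5. The log2 fold change of *Ltf* was 7.23 (adjusted p = 0.00920, exact permutation p = 0.00794). Its relation to the levels of the 10 genes was not tested.

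Epithelial cells keep their identity through a small set of transcription factors that bind enhancers of junction, polarity and barrier genes, and through repressors that keep mesenchymal genes silent. Grainyhead-like factors activate genes such as E-cadherin, OVOL proteins repress *Zeb1* and its relatives, and ESRP proteins select the exons that epithelial mRNAs use. In the uterus the epithelium forms the lumen and the glands, and its cells stop dividing and change their polarity before an embryo attaches.

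As a group these regulators were higher in mutant uteri or did not pass the test, and none was lower. *Elf3*, *Grhl1*, *Grhl2*, *Grhl3* and *Ovol1* rose, so that 5 of 10 were called higher and 0 lower, where 9.70% of all tested genes were called, 5.19% higher and 4.51% lower. The fitted log2 fold change was above 0 for 10 of 10, with a median of 0.82 against 0.03 over all tested genes. In 5 of 10 genes (*Elf3*, *Grhl1*, *Grhl3*, *Ovol1* and *Ovol2*) no mutant uterus was as low as any control, which was so for 5.53% of all tested genes, while 5.16% lay without overlap in the other direction and none of these 10 did. Calls were uneven in their stability. *Grhl3* and *Ovol1* were called higher whichever uterus was left out, while *Elf3*, *Grhl1* and *Grhl2* stood closer to the threshold. The number called higher was 2 without any single control or without mutant replicate 1, 3 without replicates 2, 4 or 5 of that genotype, and 5 without its replicate 3. The uterus is a mixture of tissues, so more epithelial cells and more RNA of a gene per epithelial cell cannot be told apart in these values.

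**Figure D1:**
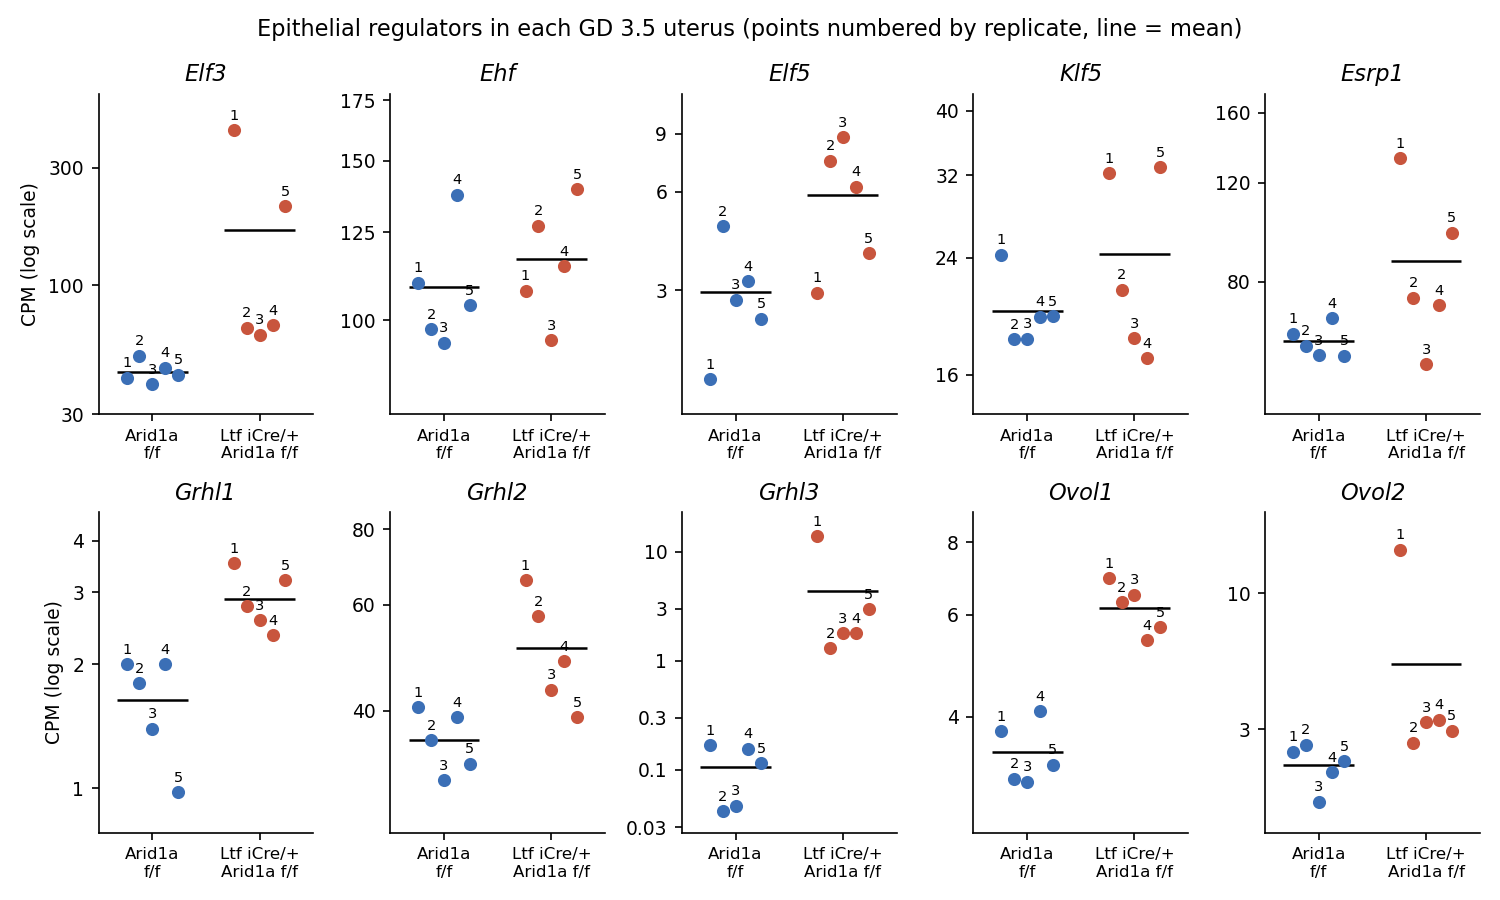
CPM of each regulator (log scale, a different range in each panel) in 5 Arid1a f/f uteri (blue) and 5 Ltf iCre/+ Arid1a f/f uteri (red), with the replicate number above each point and a line at the mean. The groups do not overlap for Elf3, Grhl1, Grhl3, Ovol1 and Ovol2, and replicate 1 is the highest mutant uterus in 7 of the 10 panels.

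The ETS-family factors share a DNA-binding domain that reads a GGAA core, and the 3 members here are confined largely to epithelia. *Elf3* (ENSMUSG00000003051; GRCm38, chr1:135253575-135258568, minus strand), a factor of epithelial differentiation and of inflammatory responses, held 42.2, 51.8, 39.7, 46.4 and 43.3 CPM in control replicates 1 to 5 and 426, 67.2, 63.0, 68.8 and 209.7 CPM in mutant replicates 1 to 5. The groups did not overlap, and replicates 1 and 5 stood far above the other mutant uteri. The mean rose from 44.7 ± 4.62 to 167 ± 158 CPM, a log2 fold change of 1.90 (SE 0.51, adjusted p = 0.0373, exact permutation p = 0.00794). It was 1.19 without replicate 1, and the call was lost without any single control, without replicate 1 or without replicate 5 (adjusted p up to 0.0887). When replicates 1 and 5 were both left out, *Elf3* was still called higher, with a log2 fold change of 0.57 (adjusted p = 0.00374).

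Replicate 1 had the highest summed level of 12 epithelium markers (2820 CPM) and replicate 5 the next highest (1978 CPM), and replicate 5 also had the highest macrophage and neutrophil marker sums (1414 and 808 CPM). Their part in the *Elf3* values was not tested. *Rnpep*, an aminopeptidase gene 4.14 kb away on the same strand, also rose (log2 fold change of 0.94, adjusted p = 0.0179). An antisense transcript that overlaps *Elf3*, *Gm26642*, held at most 26 counts in any uterus.

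*Ehf* (ENSMUSG00000012350; chr2:103263433-103303278, minus strand), which regulates differentiation of glandular and barrier epithelia, differed little between the genotypes. It held 110, 97.7, 94.4, 138 and 104 CPM in controls and 108, 127, 95.1, 115 and 140 CPM in mutant uteri. The ranges overlapped almost fully, and replicate 1, the highest mutant uterus for *Elf3*, was below the mutant mean of 117 CPM for *Ehf*. The log2 fold change was 0.10 (SE 0.13, adjusted p = 0.663, exact permutation p = 0.444), with a 95% interval from -0.17 to 0.38.

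*Elf5* (ENSMUSG00000027186; chr2:103411688-103450989, plus strand), known for its part in mammary alveolar differentiation and in trophoblast stem cells, is the next gene tested beside *Ehf*, 108 kb away. It was scarce, with 1.61, 4.71, 2.80, 3.20 and 2.45 CPM in controls and 2.95, 7.45, 8.78, 6.22 and 3.89 CPM in mutant uteri. Replicates 2, 3 and 4 lay above every control and replicates 1 and 5 within the control range, the reverse of *Elf3*. The log2 fold change of 0.99 (SE 0.34, adjusted p = 0.0931, exact permutation p = 0.0556) did not pass the threshold. Of the embryo and trophectoderm markers read beside it, the summed level was 5.17 to 9.41 CPM in controls and 2.45 to 7.52 CPM in mutant uteri. Most of this sum was *Eomes* (7.12 ± 1.83 and 4.59 ± 1.93 CPM), so it says little of the others. *Zscan4c* was at 0 in all, and *Cdx2* reached 4 counts among controls and 0 among mutant uteri. *Tdgf1* reached 2 and 3 counts. Of the 5 tested, 2 were above 0, *Dppa3* (0.76) and *Esrrb* (0.22), and 3 were below, with 0 calls.

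The relation among the 3 ETS factors also shifted. Per kb of exon, *Elf3* made up 45.4% to 56.0% of their summed level in controls, and 90.7%, 55.8%, 60.5%, 58.9% and 78.6% in mutant replicates 1 to 5. *Ehf* made up 42.1% to 53.5% in controls and 9.11% to 41.9% in mutant uteri, so that its groups just failed to overlap while those of *Elf3* touched. The difference *Ehf* minus *Elf3* in log2 CPM changed by -1.34 between the genotypes (exact permutation p = 0.0159, unadjusted over 8 pairs of relatives), and by -0.86 to -1.59 when 1 uterus was left out, where p stayed under 0.05 in 6 of 10 omissions. For *Elf5* minus *Elf3* the change was -0.49 (exact permutation p = 0.587), and for *Elf5* minus *Ehf* it was 0.85 (exact permutation p = 0.0635).

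**Figure D2:**
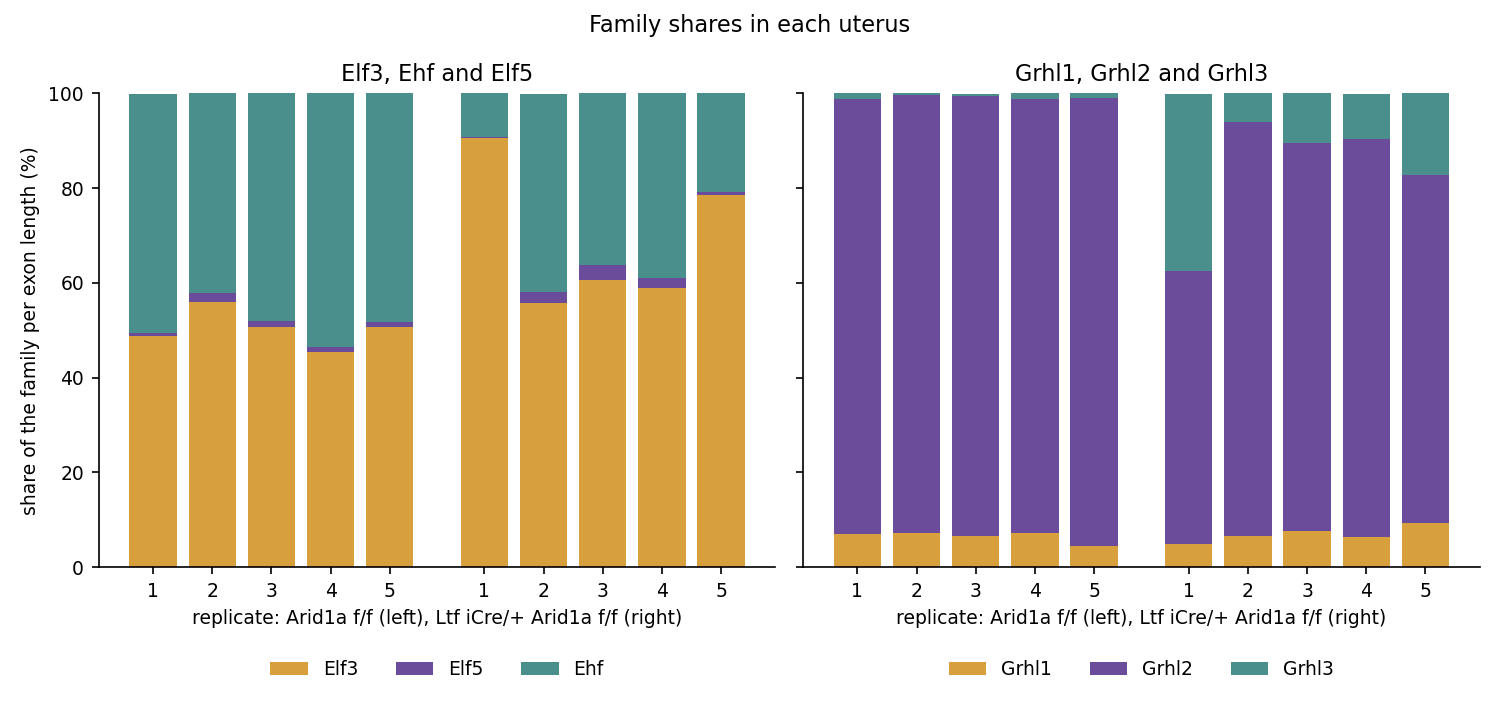
Share of each ETS factor (left) and each grainyhead-like factor (right) in its family's summed CPM per kb of exon, in percent, 1 bar per uterus with 5 Arid1a f/f uteri left and 5 Ltf iCre/+ Arid1a f/f uteri right. Elf3 takes 90.7% and 78.6% in mutant replicates 1 and 5, and Grhl3 takes 6.12% to 37.5% in that genotype against at most 1.17% in controls.

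The grainyhead-like factors bind DNA as dimers and drive junction and barrier genes, *Grhl2* in simple epithelia and *Grhl1* and *Grhl3* best known from the epidermis. *Grhl3* (ENSMUSG00000037188; chr4:135541888-135573630, minus strand), needed for barrier formation in skin and for neural tube closure, was close to absent in controls and present in every mutant uterus. It held 12, 3, 3, 11 and 8 counts in controls and 882, 77, 110, 123 and 205 counts in mutant uteri. In CPM these were 0.168, 0.0418, 0.0470, 0.156 and 0.115 against 13.8, 1.30, 1.80, 1.79 and 2.97. The lowest mutant uterus thus stood above the highest control, and replicate 1 stood apart at the top.

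The mean of *Grhl3* rose from 0.106 ± 0.0592 to 4.34 ± 5.34 CPM, a ratio of means of 41.1. The log2 fold change was 5.33 (SE 0.80, adjusted p = 0.00314, exact permutation p = 0.00794), with a 95% interval from 3.59 to 7.07. It was 4.18 without replicate 1 and 5.55 at most without any other uterus, and 3.92 without replicates 1 and 5. *Grhl3* lies 1.785 Mb from *Arid1a* on the same chromosome, the gene that is floxed in both genotypes. The nearest tested genes did not pass the test, with a log2 fold change of -0.40 for *Stpg1*, 4.09 kb away (adjusted p = 0.630). On the other side, *1700029M20Rik*, 53.0 kb away, had a log2 fold change of 5.78 (adjusted p = 0.145). It rests on few counts, with 0 in every control and at most 29 in a mutant uterus.

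*Grhl2* (ENSMUSG00000022286; chr15:37233036-37363569, plus strand), the main grainyhead-like factor of simple epithelia, was the most abundant of the 3. It held 40.5, 35.7, 30.6, 39.0 and 32.7 CPM in controls and 65.8, 57.3, 43.3, 48.3 and 39.0 CPM in mutant uteri. Of these, 4 of 5 were above every control, and only replicate 5 fell inside the control range. The mean rose from 35.7 ± 4.14 to 50.7 ± 10.8 CPM, a log2 fold change of 0.51 (SE 0.14, adjusted p = 0.0464, exact permutation p = 0.0159). Left-out uteri moved it between 0.39 and 0.59, and the call held only without mutant replicate 3 or without mutant replicate 5 (adjusted p up to 0.111 in the other 8 omissions). The antisense transcript *Gm16136*, which overlaps the 5′ end of *Grhl2*, held at most 781 counts, and reads from the overlap may have been assigned to either gene.

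*Grhl1* (ENSMUSG00000020656; chr12:24572283-24617391, plus strand), a regulator of desmosomal cadherins in skin, held 2.00, 1.80, 1.39, 2.00 and 0.976 CPM in controls. In mutant uteri it held 3.53, 2.77, 2.57, 2.35 and 3.21 CPM, all above the controls. The mean rose from 1.63 ± 0.443 to 2.89 ± 0.479 CPM, with a log2 fold change of 0.82 (SE 0.23, adjusted p = 0.0480, exact permutation p = 0.00794). Every omission of 1 uterus, control or mutant, took the adjusted p above 0.05 (0.0550 to 0.114) while the fold change stayed between 0.67 and 0.90.

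*Grhl3* changed by more than its relatives. Its difference from *Grhl2* in log2 CPM grew by 4.03 and its difference from *Grhl1* by 3.67 (exact permutation p = 0.00794 for both). *Grhl1* minus *Grhl2* changed by 0.35 (exact permutation p = 0.103). Per kb of exon, *Grhl3* made up 0.334% to 1.17% of the summed grainyhead-like level in controls and 37.5%, 6.12%, 10.5%, 9.60% and 17.2% in mutant replicates 1 to 5. The share of *Grhl2* was 91.6% to 94.6% in controls and 57.7% to 87.3% in mutant uteri, and that of *Grhl1* overlapped, at 4.39% to 7.31% against 4.81% to 9.40%.

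*Grhl3* and *Elf3* had the largest fitted rises, and the sequences at their starts are shown for that reason. The 300 bases run 5′ to 3′ on the gene's strand from 250 bases before to 50 after the RefSeq start (GRCm38.p6), and capitals mark the E-box that Snail and ZEB repressors bind (CAGGTG, here read as its reverse complement).
Grhl3, chr4:135573583-135573882, minus strand: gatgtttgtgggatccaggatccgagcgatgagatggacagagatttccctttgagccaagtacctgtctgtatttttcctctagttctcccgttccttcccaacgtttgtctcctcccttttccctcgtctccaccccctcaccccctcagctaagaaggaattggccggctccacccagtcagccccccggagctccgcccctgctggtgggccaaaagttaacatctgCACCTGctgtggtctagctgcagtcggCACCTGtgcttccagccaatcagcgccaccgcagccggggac
Elf3, chr1:135258423-135258722, minus strand: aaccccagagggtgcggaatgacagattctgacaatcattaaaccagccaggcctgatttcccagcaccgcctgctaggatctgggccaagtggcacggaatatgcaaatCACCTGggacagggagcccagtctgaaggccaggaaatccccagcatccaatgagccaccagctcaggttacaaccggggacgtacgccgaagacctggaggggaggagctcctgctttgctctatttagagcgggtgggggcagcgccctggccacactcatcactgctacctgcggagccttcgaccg
The *Grhl3* window holds 2 matches, at 19 bases before and 8 bases after the start, and the *Elf3* window holds 1, at 140 bases before it. Sequences were found for *Elf3*, *Elf5*, *Grhl1*, *Grhl3* and *Ovol2* (7 windows), and 4 of the 7 windows, of 3 genes with *Elf5* as the other, held a match, where 20.2% of all 32851 windows of this length hold one on either strand. None of the 7 windows held a grainyhead-like (AACCNGTT), ETS (CAGGAAG), OVOL (CCGTTA) or estrogen receptor motif, which 2.09%, 13.3%, 2.76% and 0.07% of all windows hold. Both strands were searched, no motif contains another, and a match describes the sequence only. Other forms of these motifs were not searched. The GGAA core that ETS factors read is shorter than the ETS string, and its occurrences were not counted.

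OVOL proteins are zinc-finger repressors that hold back mesenchymal genes. *Ovol1* (ENSMUSG00000024922; chr19:5549136-5560646, minus strand), which also restrains proliferation of epidermal progenitors, held 3.78, 3.12, 3.09, 4.09 and 3.30 CPM in controls. It held 6.93, 6.30, 6.49, 5.42 and 5.70 CPM in mutant uteri, so that the groups were apart and both were tight. The mean rose from 3.48 ± 0.440 to 6.17 ± 0.609 CPM, a log2 fold change of 0.83 (SE 0.15, adjusted p = 0.00745, exact permutation p = 0.00794). It stayed between 0.78 and 0.89 and was called higher in all 10 omissions of 1 uterus.

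*Ovol2* (ENSMUSG00000037279; chr2:144305175-144332146, minus strand), a repressor of *Zeb1*, held 2.46, 2.62, 1.58, 2.06 and 2.27 CPM in controls and 14.6, 2.67, 3.19, 3.27 and 2.97 CPM in mutant uteri. All 5 of the latter lay above every control, replicate 2 by a small margin, and replicate 1 stood far above the others. The means were 2.20 ± 0.403 and 5.35 ± 5.20 CPM, and the log2 fold change of 1.28 (SE 0.47, adjusted p = 0.109, exact permutation p = 0.00794) did not pass the threshold. Without replicate 1 it was 0.46. *Ovol1* minus *Ovol2* in log2 CPM changed by -0.10 (exact permutation p = 0.952), with -0.26 to 0.31 over the omissions, so that no difference between the relatives was shown.

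*Esrp1* (ENSMUSG00000040728; chr4:11331933-11386783, minus strand) encodes an RNA-binding protein that selects epithelial exons. It held 64.7, 61.6, 59.3, 68.9 and 59.1 CPM in controls, a narrow range, and 133, 75.0, 57.1, 72.7 and 97.8 CPM in mutant uteri. Of the latter, 4 lay above and 1, replicate 3, below every control. The log2 fold change was 0.47 (SE 0.19, adjusted p = 0.135, exact permutation p = 0.0714), and without replicate 3 it was 0.59 and called higher (adjusted p = 0.0476). Its partner *Esrp2* (ENSMUSG00000084128), which shares its function, was at 19.7 ± 1.05 and 26.8 ± 7.41 CPM with a log2 fold change of 0.44 (SE 0.16, adjusted p = 0.0994). No change in the proportion of the 2 genes was detected. *Esrp1* made up 66.8% to 69.4% of their level per kb in controls and 63.4% to 71.1% in mutant uteri, and their difference in log2 CPM changed by 0.01 (exact permutation p = 0.976), between -0.03 and 0.09 over the omissions.

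*Klf5* (ENSMUSG00000005148; chr14:99298691-99315036, plus strand), a Krüppel-like factor of proliferating epithelia that the uterine epithelium needs for implantation, held 24.3, 18.1, 18.1, 19.6 and 19.6 CPM in controls. It held 32.2, 21.5, 18.2, 17.0 and 32.9 CPM in mutant uteri, high in replicates 1 and 5 and within or below the control range in the others. The log2 fold change of 0.29 (SE 0.19, adjusted p = 0.391, exact permutation p = 0.294) did not pass the threshold.

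Uteri of the same genotype differed from each other more in the mutant group than in controls for 7 of the 10 genes, by the coefficient of variation and without a test. The coefficient of variation of *Elf3* was 10.3% in controls and 94.4% in mutant uteri, that of *Ovol2* 18.4% and 97.3%, and that of *Esrp1* 6.62% and 33.7%. *Grhl1* varied more in controls (27.1% against 16.6%), as did *Ovol1* (12.7% against 9.88%) and *Ehf* (15.8% against 14.7%). The highest mutant uterus was replicate 1 for 7 of the 10 genes, replicate 5 for *Ehf* and *Klf5*, and replicate 3 for *Elf5*. The ratio of its level to that of the lowest uterus of the genotype was 10.6 for *Grhl3*, 6.76 for *Elf3*, 5.49 for *Ovol2* and 1.28 for *Ovol1*.

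Levels of different genes were set side by side as CPM per kb of exon, with the length of all exons of a gene merged. In controls the order was *Elf3* (20.2), *Ehf* (19.5), *Esrp1* (9.95), *Grhl2* (4.15), *Klf5* (3.83), *Ovol2* (1.04), *Ovol1* (0.996), *Elf5* (0.503), *Grhl1* (0.295) and *Grhl3* (0.0378). The ranges of *Elf3* and *Ehf*, of *Grhl2* and *Klf5*, of *Ovol2* and *Ovol1*, and of *Elf5* and *Grhl1* overlapped, whereas *Grhl3* lay below all others. In mutant uteri *Elf3* (75.3) lay above *Ehf* (20.96) without overlap, and *Grhl3* moved from the last place to between *Ovol1* (1.77) and *Elf5* (0.997), at 1.55. From *Grhl2* downward, every neighbor in that order overlapped the next, so that the place of *Grhl3* among them is not settled by these ranges. Per kb of the longest transcript, *Ehf* (24.3) stood above *Elf3* (21.3) in controls, and *Elf5* (1.80) above *Grhl3* (1.55) in mutant uteri, while the other places in both orders stayed as given. Overlap of ranges was read per merged exon length only. It may differ per longest transcript, also for *Elf3* and *Ehf* in mutant uteri.

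Because these genes are expressed in epithelium, their levels were set beside those of 12 epithelium markers (cadherin, keratin, claudin and other junction or surface genes) in the same uterus. Of the 12, 8 were called higher and 0 lower, with a median log2 fold change of 0.84. *Cdh1*, encoding E-cadherin, rose from 237 ± 29.1 to 419 ± 105 CPM (log2 fold change of 0.82, adjusted p = 0.0106), and *Epcam*, an epithelial adhesion molecule, from 88.6 ± 10.8 to 203 ± 113 CPM (1.19, adjusted p = 0.0370). The keratins *Krt8* (0.87) and *Krt19* (0.77) rose as well. The summed level of the markers was 963 to 1252 CPM in controls and 2820, 1594, 1369, 1690 and 1978 CPM in mutant replicates 1 to 5, without overlap. Between 4 and 9 of the 12 were called higher when 1 uterus was left out. The mean log2 CPM of the markers was 1.00 higher in mutant uteri (exact permutation p = 0.00794), and their median was 0.76 higher (exact permutation p = 0.00794).

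Relative to this marker level the regulators differed in direction. *Grhl3* was still higher, by 3.52 on the log2 scale and without overlap of the groups (exact permutation p = 0.00794), and 0.485% of all tested genes were higher without overlap. *Ehf* was lower, by a difference of -0.89, *Klf5* by -0.76 and *Esrp1* by -0.58, each without overlap of the groups (exact permutation p = 0.00794 for each). The median difference of all tested genes from the markers was -0.99, and 49.7% of them were lower without overlap, so that these 3 did not fall further than the median gene. *Grhl2* was lower by a difference of -0.51 (exact permutation p = 0.0159). The other 5 were not shown to differ, with 0.45 for *Elf3*, -0.04 for *Elf5*, -0.15 for *Grhl1*, -0.17 for *Ovol1* and -0.07 for *Ovol2* (exact permutation p from 0.397 to 0.960). These p-values are unadjusted over 10 genes.

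Of the 10 genes, *Esrp1* varied least around the markers within each genotype. Its log2 difference from their mean had an SD of 0.04 over controls and of 0.09 over mutant uteri, at a ratio of 0.668 between the genotypes, and *Esrp2* was lower by a like difference of -0.59 (exact permutation p = 0.00794). When the median of the markers or *Cdh1* and *Epcam* alone took the place of the mean, *Ehf* was lower by differences between -0.80 and -0.65 and *Esrp1* between -0.50 and -0.34 (exact permutation p = 0.00794 in each), *Klf5* between -0.67 and -0.52 (exact permutation p up to 0.0238) and *Grhl3* higher by 3.61 to 3.76. *Grhl2* then no longer passed (exact permutation p of 0.0952 and 0.103). When each of the 12 markers was left out of the mean in turn, *Ehf* was lower by -1.02 to -0.59 and *Esrp1* by -0.71 to -0.28 (exact permutation p = 0.00794 throughout), and *Klf5* by -0.89 to -0.46 (exact permutation p up to 0.0238). The p of *Grhl2* reached 0.270 over these omissions, and *Elf3* was higher by 0.32 to 0.75 (exact permutation p from 0.0397 to 0.437).

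**Figure D3:**
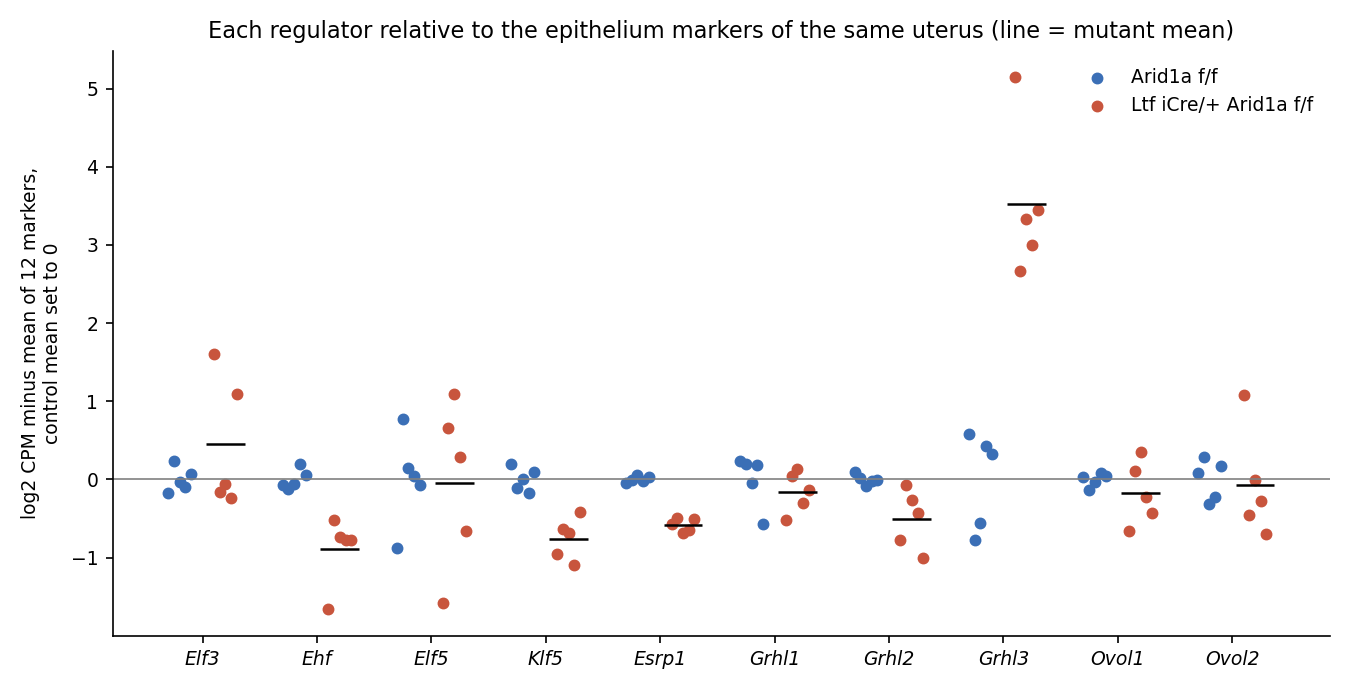
Log2 CPM of each regulator minus the mean log2 CPM of 12 epithelium markers of the same uterus, shifted so that the control mean is 0, for 5 Arid1a f/f (blue) and 5 Ltf iCre/+ Arid1a f/f uteri (red), with a line at the mutant mean. Grhl3 lies at 3.52, Ehf, Klf5 and Esrp1 lie below all controls at -0.89, -0.76 and -0.58, where the median of all tested genes is -0.99, and Elf3 spreads to both sides of 0.

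The same question was put to the fit of all genes, with the libraries scaled so that the 12 markers were level between uteri. *Grhl3* was called higher (log2 fold change of 4.05, adjusted p = 0.000215), which held for 1.81% of all tested genes under this scaling. *Ehf* (-0.85, adjusted p = 0.00254), *Esrp1* (-0.58, adjusted p = 0.00479) and *Klf5* (-0.74, adjusted p = 0.00530) were called lower, as were 57.7% of all tested genes, since the scaling moved the median of all genes to -0.93. The calls of *Elf3* (0.65), *Grhl1* (-0.16), *Grhl2* (-0.47, adjusted p = 0.0501) and *Ovol1* (-0.12) were lost under it, and the last 3 changed direction. With libraries scaled to the median of the markers, the median of all genes was -0.78, *Elf3* was called higher (0.79, adjusted p = 0.0404) with *Grhl3* (4.19), and *Ehf* (-0.70, adjusted p = 0.0119), *Esrp1* (-0.43, adjusted p = 0.0324) and *Klf5* (-0.60, adjusted p = 0.0230) were called lower. Over 12 fits that each left 1 marker out of the mean, *Grhl3* was called higher in 12 and *Ehf* lower in 12. *Esrp1* (-0.71 to -0.28, adjusted p up to 0.136) and *Klf5* (-0.87 to -0.45, adjusted p up to 0.0816) were each called lower in 11 of these fits, *Grhl2* was called lower in 10 and *Elf3* higher in 1.

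**Figure D4:**
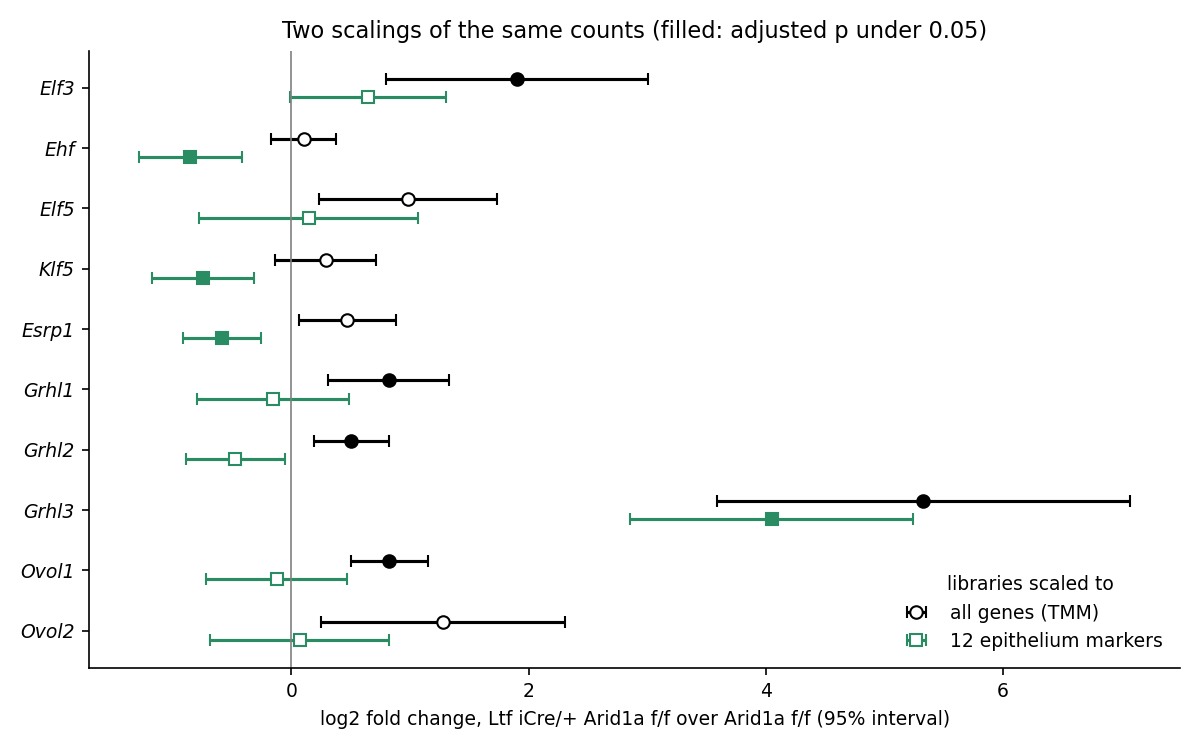
Log2 fold change of mutant (Ltf iCre/+ Arid1a f/f) over control (Arid1a f/f) uteri with its 95% interval for each regulator, with libraries scaled over all genes (black circles) or to 12 epithelium markers (green squares), filled where the adjusted p is under 0.05. Grhl3 is filled under both scalings at 5.33 and 4.05, while Ehf, Klf5 and Esrp1 move below 0 under the second.

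Genes that these factors are known to act on, or that belong to the same families, were taken from lists, which are described here by their counts and medians. Of 10 reported targets of grainyhead-like factors, 6 were called higher and 0 lower, where 5.19% and 4.51% of all tested genes were. The fold change was above 0 for 10 of 10, with a median of 0.73. *Cdh1*, which is also among the epithelium markers, *Prss8* (0.75, adjusted p = 0.0194), a membrane-anchored protease of epithelial barriers, *Spint1* (0.70, adjusted p = 0.00162), a Kunitz-type protease inhibitor, and *Macc1* (1.98, adjusted p = 0.00746), linked to MET signaling, had the highest mean counts of the 6 called. The summed level of all 10 was 332 to 432 CPM in controls and 538 to 939 CPM in mutant uteri, without overlap. That of the 9 that are no epithelium marker was 129 to 175 CPM and 226 to 343 CPM, also without overlap. The part of the grainyhead-like factors and of the epithelial share in this was not tested. Of 10 genes with exons under ESRP control, 0 were called in either direction, with a median of -0.16, among them *Fgfr2* (-0.06) and *Slk* (-0.02). Gene counts do not show which exons were used.

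Among 9 mesenchymal transcription factors, a list that is not limited to genes repressed by OVOL proteins, 8 were below 0. Of the 9, 0 were called lower and 1 was called higher, with a median of -0.25. The one called higher was *Snai3*, a Snail-family repressor, at 0.166 ± 0.0377 and 1.62 ± 1.26 CPM (log2 fold change of 3.27, adjusted p = 0.00530). The summed level, carried by abundant members such as *Tcf4* and *Zeb1*, was 1187 to 1333 CPM in controls and 893 to 1163 CPM in mutant uteri, without overlap. By the mean log2 CPM of the 9, which weighs each gene alike, 0 mutant uteri lay below every control and 1 lay above. *Zeb1*, the target that *Ovol2* is best known for, had a log2 fold change of -0.30 (adjusted p = 0.0763). The 9 stroma markers had a median of -0.39. The part of the OVOL proteins and of the stromal share in the lower sum was not tested.

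Among relatives of the regulators, 8 of 68 tested list entries were called, 1 higher and 7 lower, where 5.19% of all tested genes were called higher and 4.51% lower. A gene on more than 1 list of relatives was counted on each, and no such gene was called. Of 21 other ETS factors tested, 0 were called higher and 4 lower (median -0.03), namely the factors of endothelial and blood cells *Ets1* (-0.33, adjusted p = 0.0205), *Fli1* (-0.65, adjusted p = 0.00429) and *Erg* (-0.86, adjusted p = 0.00260), and *Etv1* (-0.62, adjusted p = 0.0187). Of 16 other Krüppel-like factors, 0 were called higher and 2 lower (median -0.28), *Klf9*, a progesterone receptor coregulator of the uterus (-0.49, adjusted p = 0.0361), and *Klf13* (-0.37, adjusted p = 0.00494). The 3 grainyhead relatives of the TFCP2 branch had 0 calls and a median of -0.20, with -0.24 for *Tfcp2l1* and 0.10 for *Ubp1*. Of 15 other splicing regulators 1 was called, *Rbm47*, which rose from 40.2 ± 3.49 to 62.4 ± 19.2 CPM (0.63, adjusted p = 0.0379), and their median was 0.01. Of 13 other epithelial transcription factors tested, 0 were called higher and 1 lower (median -0.16), *Foxa2*, the factor of uterine glands, which fell from 12.6 ± 1.56 to 5.73 ± 1.69 CPM (-1.13, adjusted p = 0.00570).

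**Figure D5:**
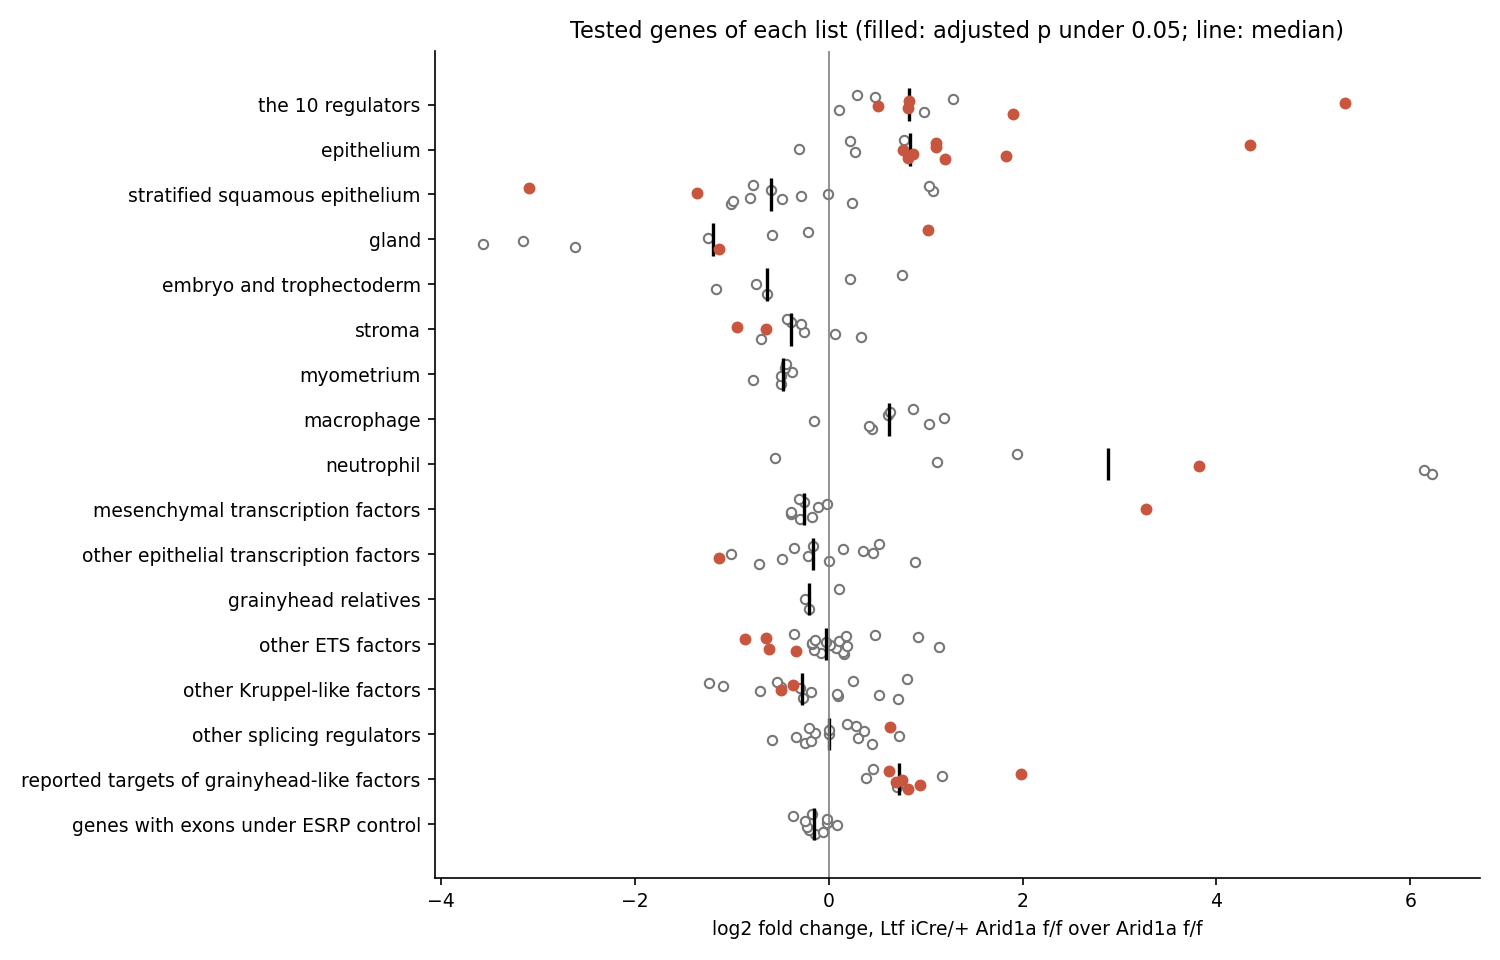
Log2 fold change of mutant (Ltf iCre/+ Arid1a f/f) over control (Arid1a f/f) uteri for each tested gene of the 10 regulators and of 16 lists, filled where the adjusted p is under 0.05, with a line at the list's median. The regulators, the epithelium markers and the reported targets of grainyhead-like factors have medians of 0.82, 0.84 and 0.73, while the other ETS, Krüppel-like and splicing lists lie between -0.28 and 0.01.

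*Grhl1*, *Grhl3*, *Ovol1* and *Elf3* are also expressed in stratified epithelia, and markers of other cell types were read for that reason. Of 13 tested stratified squamous markers, 0 were called higher and 2 lower, *Krt10* (-1.36, adjusted p = 0.0258) and *Dsg3* (-3.09, adjusted p = 0.00576), with a median of -0.60, a summed level of 10.9 to 48.2 CPM in controls and 9.14 to 21.02 CPM in mutant uteri, and *Krt6a* at 0 in all. Of 8 gland genes, *Aldh1a1* was called higher (1.02, adjusted p = 0.0247) and *Foxa2* lower, with a median of -1.19. The 5 tested embryo and trophectoderm markers had 0 calls and a median of -0.63, with *Eomes* the most abundant at 7.12 ± 1.83 and 4.59 ± 1.93 CPM. Of 9 stroma markers, *Dcn* (-0.65) and *Vim* (-0.94) were called lower and 0 higher, with a median of -0.39, and the 6 myometrium markers had 0 calls and a median of -0.48. The 8 macrophage markers had 0 calls and a median of 0.62 (summed level of 264 to 557 CPM in controls and 430 to 1414 CPM in mutant uteri), and of 6 neutrophil markers *Ly6g* was called higher (3.82, adjusted p = 0.0294), with a median of 2.88. The neutrophil sum was 5.82 to 23.9 CPM in controls, 13.0 to 23.4 CPM in mutant replicates 1 to 4 and 808 CPM in replicate 5. *Grhl3* was highest in mutant replicate 1 (13.8 CPM) and next highest in replicate 5 (2.97 CPM). Its relation to the neutrophil sum was not tested.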

How the data were processed

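Reads were 50 bp, paired end mRNA libraries of uterine RNA. According to the paper's methods and the submitters' processing notes, the authors trimmed them (cutadapt 1.18, Trim Galore 0.6.4), checked them (FastQC 0.11.9), aligned them to GRCm38 and counted reads per gene (STAR 2.7.3a, GeneCounts). The deposited values are whole-number counts of 45706 genes in 10 libraries, without normalization or filter. The strand setting and the annotation release are not given in the sources used here, so a gene and its antisense partner may share reads. Symbols, positions and exon lengths came from GENCODE M21, which holds 45143 of the identifiers.

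Genes averaging 1 or more counts per sample were tested with edgeR 4.0.16 in R 4.3.3 (TMM, quasi-likelihood test, genotype only, Benjamini-Hochberg, threshold 0.05). SEs and intervals come from that fit. Log2 CPM used a prior count of 2. Exact permutation tests ran over all 252 arrangements of 5 uteri against 5. Each uterus came from a separate mouse, and no 2 libraries of a genotype were duplicates (their counts gave a chi-square per gene of 33.3 or more). No pairing of uteri by replicate number was seen (correlations of deviations from -0.05 to 0.13), which cannot exclude one. According to the paper littermates were compared where possible, and the sample labels do not give litters. The members and lists were chosen with earlier results of these data known. Genes named were the 10 members, *Arid1a*, *Ltf*, *Esrp2*, from each list up to 4 called genes of highest mean count, or the 2 of highest mean count where none was called, and overlapping or neighboring genes. *Zeb1* and *Tcf4*, and the embryo markers other than *Eomes*, were named after their values were seen. Promoter windows were RefSeq's. Alternatives covered scaling, DESeq2 1.42.0, limma voom (limma 3.58.1), the filter on low counts, the prior count, the markers, a replicate block and omitted uteri. The edgeR, DESeq2 and voom procedures were tested on simulated counts. Figures were drawn with matplotlib 3.10.9 in Python 3.11.15.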

Additional observations from a re-analysis of the deposited data

Results flagged for a closer look

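In each genotype the highest and the lowest of 5 uteri were compared with the other uteri for all 10 regulators (20 groups), and 2 single values stood apart by Dixon's criterion on log2 CPM and 3 on CPM, where chance gives about 1 in 20 groups. *Ovol2* in mutant replicate 1 was at 14.6 CPM, the highest of its group, with a gap to the next uterus of 0.88 of the group's range on log2 CPM and 0.95 on CPM. *Grhl3* in the same uterus was at 13.8 CPM, with a gap of 0.65 on log2 CPM, within the critical value of 0.71, and of 0.87 on CPM. This uterus was the highest of its group for 7 of the 10 regulators and for the epithelium markers. *Klf5* in control replicate 1 was at 24.3 CPM, the highest of its group, with a gap of 0.73 of the range on log2 CPM and 0.76 on CPM.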

How the results depend on the processing

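*Grhl3* and *Ovol1* kept their direction and call in all 10 omissions of 1 uterus (4.18 to 5.55 and 0.78 to 0.89). *Elf3* ranged from 1.19 to 2.11, *Grhl1* from 0.67 to 0.90, *Grhl2* from 0.39 to 0.59 and *Esrp1* from 0.27 to 0.59 over the omissions, members called higher from 2 to 5, and all genes called from 594 to 1296 higher and from 610 to 1085 lower. DESeq2 size factors, upper quartile scaling and library totals kept 10 of 10 members above 0. Upper quartile scaling left *Grhl2* (0.49) uncalled, as did the unfiltered table for *Grhl1* (0.82). DESeq2 called 2131 genes higher and 1972 lower and added *Elf5* (0.98), while *Ovol2* got no adjusted p from it, and limma voom called 3 members higher, without *Elf3* (1.45) and *Grhl2* (0.49). Of the replicate numbers, 2 of 5 correlated best with their own number, which cannot settle whether the uteri were paired. With a replicate block 845 genes were higher and 859 lower, *Elf3* (1.41) and *Grhl1* (0.85) were not called and *Elf5* (0.96) was. Without mutant replicates 1 and 5, *Grhl1* (0.65) was not called, *Elf5* (1.34) was, and *Klf5* was at -0.079. Scaling to the epithelium markers, whose own rise shifts every gene by construction, gave 455 genes higher and 14505 lower, 1 member higher and 3 lower, with *Elf3* 0.65, *Ehf* -0.85, *Grhl1* -0.16, *Grhl2* -0.47, *Ovol1* -0.12, *Esrp1* -0.58, *Klf5* -0.74 and *Esrp2* -0.59. Scaled to their median, a setting added after the data were seen, it gave 491 higher and 12272 lower, 2 members higher and 3 lower, with *Ehf* -0.70, *Grhl1* -0.0068, *Grhl2* -0.32, *Ovol1* 0.024, *Esrp1* -0.43, *Klf5* -0.60 and *Esrp2* -0.44. The omission of each marker in turn, also added then, moved *Grhl1* between -0.28 and 0.14, *Ovol1* between -0.23 and 0.17 and *Ovol2* between -0.081 and 0.38. Against the median of the markers and against *Cdh1* with *Epcam*, in this order, *Elf5* differed by 0.19 and 0.044, *Grhl2* by -0.27 and -0.42 and *Ovol2* by 0.17 and 0.015, and *Grhl1* (0.083) and *Ovol1* (0.067) turned with the first. Over omissions, the differences from the markers ranged from -0.33 to 0.34 for *Elf5* and from -0.36 to 0.084 for *Ovol2*, and the pairs from -1.59 to -0.86 for *Ehf* and *Elf3*, -0.90 to 0.18 for *Elf5* and *Elf3*, -0.26 to 0.31 for *Ovol1* and *Ovol2* and -0.033 to 0.092 for *Esrp1* and *Esrp2*. Causes of lost or gained calls were not tested beyond this. Levels near 1 CPM rest on few counts, *Grhl3* in controls on 3 to 12.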
